A study of Mus musculus with 6 samples.

Results

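The intermediate filament genes described here are 8 of the 54532 genes in the deposited count table, taken by gene name: the neurofilament genes Nefh, Nefm and Nefl, the related neuronal genes Prph and Ina, and Vim, Nes and Gfap, which are better known from glia, progenitors and mesenchyme. All 8 passed the filter on low counts, with and without WT replicate 2. They were measured by bulk RNA sequencing of mouse dorsal root ganglia, which hold the cell bodies of the body's sensory neurons. There were 3 libraries of heterozygous Ash1l+/- mice and 3 of wild-type (WT) littermates, and no treatment is named. Ash1l encodes a histone H3 lysine 36 methyltransferase. The labels give no age, sex or allele structure, and they do not tie libraries to individual animals. P-values thus measure only the spread between these libraries, which may be technical.

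Intermediate filaments are rope-like polymers of coiled-coil proteins. In large myelinated axons the light, medium and heavy neurofilament proteins (from Nefl, Nefm and Nefh) assemble together, and the amount of neurofilament sets axon calibre. Peripherin (Prph) is the typical intermediate filament of small peripheral sensory neurons and of injured or growing ones, and internexin (Ina) is a partner of the neurofilament proteins that is more abundant in the central nervous system. Vimentin (Vim) is made by Schwann cells, satellite glia, fibroblasts and vessels. Nestin (Nes) marks neural progenitors and is also found in vessels and immature glia, and Gfap is the astrocyte filament, also made by some non-myelinating Schwann cells and satellite glia.

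Total gene counts ranged from 17209294 to 20545722 per library. WT replicate 2 stood apart, with log2 CPM correlating at 0.846 to 0.877 with the other libraries across genes, against 0.981 to 0.992 among the other 5 (genes are not independent replicates). It was the highest of the 6 libraries in 40.7% of tested genes and the lowest in 44.5%. The Ash1l transcript showed no decrease in libraries labelled Ash1l+/-, at 66.5, 66.5 and 68.9 CPM against 60.9, 30.9 and 54.4 in WT replicates 1, 2 and 3, with a log2 fold change of 0.46 (SE 0.27, adjusted p = 0.396 in edgeR) and, without WT replicate 2, 0.225 (SE 0.08, adjusted p = 0.0593). The labels are therefore not checked by that gene, and every direction below rests on them. CPM are counts scaled per library size with edgeR's TMM (trimmed mean of M-values) factors, and fold changes are Ash1l+/- over WT. Each result is given with all 6 libraries and without WT replicate 2.

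The sequences below show 2 features of these genes that bear on their counts and their products, and the promoter of Prph, whose difference changed sign between analyses. Nefm and Nefl lie on opposite strands of chromosome 14 of GRCm38, with Nefl inside the annotated span of Nefm. Nefm (ENSMUSG00000022054) runs from 68082590 to 68124846 on the minus strand, and Nefl (ENSMUSG00000022055) from 68083863 to 68089095 on the plus strand. In GENCODE M21 the transcript Nefm-202 has an exon 4 from 68082590 to 68084970 that runs through 1108 bases of the first Nefl exon. The stretch chr14:68084921-68085009, read on the plus strand from the coding part of Nefl exon 1, crosses the edge of that overlap, with the bases inside the Nefm exon in capitals. The second sequence is positions 1542 to 1661 of the Nefh coding sequence, the part richest in the 8 letters AAGTCCCC, shown in capitals, where the tail of the heavy neurofilament protein carries its well-known phosphorylated repeats. The third is the 90 bases before the RefSeq start of Prph on GRCm38 (chr15:99055084-99055173, plus strand), with TATAAA in capitals.
Nefl exon 1: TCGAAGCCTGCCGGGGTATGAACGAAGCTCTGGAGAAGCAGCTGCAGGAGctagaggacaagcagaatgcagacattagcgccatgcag
Nefh coding repeat: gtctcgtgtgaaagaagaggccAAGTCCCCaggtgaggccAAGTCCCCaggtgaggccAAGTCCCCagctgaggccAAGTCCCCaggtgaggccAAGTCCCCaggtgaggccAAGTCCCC
Prph promoter: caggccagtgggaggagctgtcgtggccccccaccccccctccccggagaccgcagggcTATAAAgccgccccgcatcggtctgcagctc

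AAGTCCCC occurred 12 times on the coding strand of the 3270 coding bases of Nefh, from position 1564 to position 2659, and 6 of these lie in the stretch shown. It occurred 0 times in the longest coding sequence of each of the other 7 genes. Only this exact string was searched, so these counts do not show whether a protein has such repeats spelled with other bases. In the 250 bases before the RefSeq start, TATAAA on either strand was found in Prph and Vim among the 5 members in the promoter table (Prph, Ina, Vim, Nes and Gfap), and in 12.4% of all 32851 promoters. The named kit keeps no strand information, and a read inside the 1108 shared bases cannot be assigned to Nefm or Nefl. The file's gene lengths, 5782 bases for Nefm and 3380 for Nefl, count these bases for both. Ina has 456 exonic bases in common with Nt5c2 on the other strand, and the other 5 members share no exonic base with another gene in GENCODE M21.

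Transcripts of the neuronal filaments were among the most abundant in the ganglion. By raw count Nefm ranked 3 or 4 of all genes in the 5 libraries other than WT replicate 2, Nefl 5 to 7 and Nefh 7 to 15. The 8 genes together took 1.28%, 1.08% and 1.22% of all counts in the WT libraries, in replicate order, against 1.41%, 1.31% and 1.44% in the Ash1l+/- libraries. The neurofilament triplet alone took 0.993%, 0.665% and 0.961% in WT and 1.15%, 1.05% and 1.18% in Ash1l+/-. All 3 Ash1l+/- libraries were above all 3 WT libraries in both shares of the raw totals, and WT replicate 2 was the lowest. For the 8 genes together this order depended on the scaling. In TMM-scaled CPM the 8 genes summed to 11660 to 12000 in WT replicates 1 and 3 and 12430 to 13790 in Ash1l+/-. WT replicate 2 was then the highest, at 14220, so that the groups overlapped. Prph alone gave 4584 CPM of that sum in WT replicate 2. Of the triplet, Nefm and Nefl were each higher in CPM in every Ash1l+/- library than in every WT library, and Nefh was not.

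On the deposited FPKM scale, which divides by gene length, the order of levels in the 5 libraries other than WT replicate 2 began with Prph at 964 to 1089 and Nefl at 894 to 1098, whose ranges overlapped. Nefh at 631 to 796 and Nefm at 626 to 805 came next and overlapped each other. Vim followed at 86.5 to 101, Ina at 18.0 to 20.5, Nes at 3.47 to 6.26 and Gfap at 0.179 to 0.650, each clear of its neighbours. The order of the first 4 depends on the Nefm and Nefl lengths: counting Nefm by the exons of Nefm-201 and Nefl without the shared bases, shares of the 8 genes' reads per kilobase in these 5 libraries were 30.5% to 33.2% for Nefl, 25.4% to 28.5% for Nefm, 20.2% to 24.98% for Prph and 14.8% to 16.5% for Nefh. In WT replicate 2 the order was different: Prph was at 2319, Nefh at 879, Nefl at 786, Nefm at 467, Vim at 160, Ina at 17.3, Nes at 8.90 and Gfap at 0.466 FPKM. Counted as reads per kilobase over the 8 genes, the 5 neuronal filaments made up 96.4% to 97.4% of the total in every library.

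**Figure D1:**
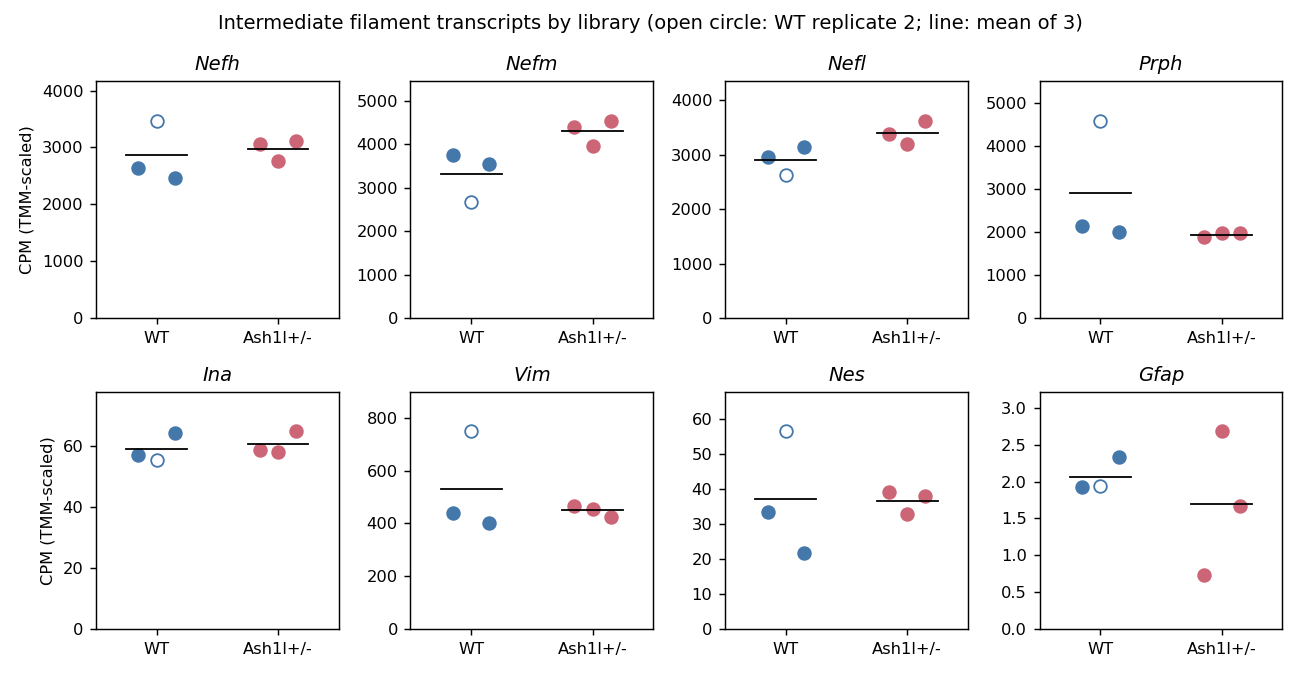
CPM (TMM-scaled, linear axis from 0) of each gene in each library, with WT in blue and Ash1l+/- in red, the mean of 3 libraries as a line and WT replicate 2 as an open circle. Nefm and Nefl are higher in every Ash1l+/- library than in every WT library, and Nefh, Prph, Vim and Nes are highest in WT replicate 2.

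Among the neurofilament triplet, Nefm, the medium chain, was at 3749, 2669 and 3546 CPM in WT replicates 1, 2 and 3 and at 4401, 3964 and 4551 CPM in Ash1l+/- replicates 1, 2 and 3. Every Ash1l+/- library was above every WT library, and WT replicate 2 was the lowest of the 6. The group levels were 4305 ± 305 CPM in Ash1l+/- and 3321 ± 574 in WT (SD, n = 3). Nefl, the light chain that the other neurofilament proteins need for assembly, was at 2958, 2628 and 3149 CPM in WT and 3377, 3193 and 3629 in Ash1l+/-, in the same replicate order. Its groups also did not overlap, although WT replicate 3 and Ash1l+/- replicate 2 lay close together. Nefh (ENSMUSG00000020396, chromosome 11, 4938754 to 4948064, minus strand), the heavy chain, was at 2633, 3472 and 2470 CPM in WT and 3060, 2755 and 3107 in Ash1l+/-. Here WT replicate 2 was the highest of the 6, so that the groups overlapped with all libraries and separated without that one.

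With all 6 libraries, edgeR's quasi-likelihood test called 0 of 16032 genes by genotype at an adjusted p of 0.05, which is 0% as the background, and 0 of the 8 members. At an unadjusted p of 0.05, 1702 genes and 0 members passed, and DESeq2 called 35 genes, 0.218% of those tested (0.0686% higher), and 0 members. The log2 fold changes were 0.37 (SE 0.19, adjusted p = 0.385) for Nefm, 0.22 (SE 0.15, adjusted p = 0.432) for Nefl and 0.06 (SE 0.19, adjusted p = 0.852) for Nefh. Two-sided exact permutation tests of log2 CPM gave p = 0.1 for Nefm, Nefl and Prph, the smallest that 3 libraries against 3 can give, and 0.5 to 0.9 for the other 5. Groups did not overlap in 2 members higher in Ash1l+/- and 1 lower, beside 19.3% and 19.2% of all tested genes.

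Without WT replicate 2, Nefh, Nefm and Nes rose in the libraries labelled Ash1l+/-, 3 of 8 members, and 0 fell. The background in that comparison was 19.8% of 16395 genes called, 9.39% higher and 10.4% lower. Nefm was higher by a log2 fold change of 0.24 (SE 0.07, adjusted p = 0.0249), 1.18-fold, and Nefh by 0.22 (SE 0.07, adjusted p = 0.036), 1.17-fold. DESeq2 without WT replicate 2 also called these 3 members, beside 17.7% of genes, 8.64% higher and 9.07% lower. Nefl had a log2 fold change of 0.16 (SE 0.07, adjusted p = 0.131) and did not pass. The median log2 fold change of the 8 members was 0.13, beside 0.002 over all genes tested. Groups did not overlap for Nefh, Nefm and Nefl, which were higher, and for Prph, which was lower, beside 23.9% and 25.3% of all tested genes in those directions.

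With a further library left out of the 5, the sizes stayed similar while some calls were lost. The log2 fold change of Nefm was 0.20 (adjusted p = 0.14) without Ash1l+/- replicate 3, 0.28 (adjusted p = 0.0824) without WT replicate 1 and 0.195 (adjusted p = 0.16) without WT replicate 3. That of Nefh was 0.19 (adjusted p = 0.16), 0.27 (adjusted p = 0.0975) and 0.17 (adjusted p = 0.225) in the same order. Both stayed past the threshold without Ash1l+/- replicate 1 or 2, and neither passed in limma on log2(FPKM + 1), at 0.24 (adjusted p = 0.129) for Nefm and 0.22 (adjusted p = 0.147) for Nefh.

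**Figure D2:**
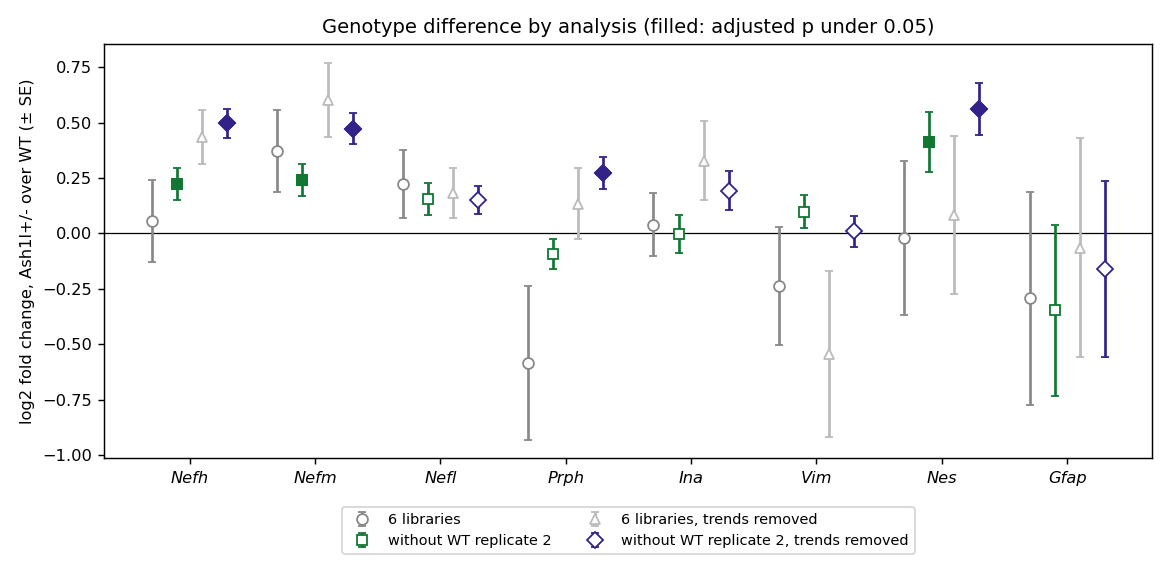
log2 fold change (Ash1l+/- over WT) with its SE for each gene in 4 analyses: 6 libraries, 5 libraries without WT replicate 2, and each with GC and length trends removed; filled symbols passed an adjusted p of 0.05 in edgeR. Nefm is above 0 in all 4, Prph runs from -0.59 with all 6 libraries to 0.27 without WT replicate 2 and with trends removed, and Nes passes only without WT replicate 2.

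Transcripts in these libraries differ by base composition and length, and the members span a range of both. The GC share of the longest transcript was 60.8% for Prph, 58.4% for Nefh, 57.8% for Nefm, 55.5% for Ina, Nes and Gfap, 48.8% for Nefl and 46.5% for Vim, and file gene lengths ran from 1999 bases for Prph to 6416 for Nes. With each library's GC and length trends removed, and without WT replicate 2, 4 members rose (Nefh, Nefm, Nes and Prph) and 0 fell, beside a background of 7.04% of genes called, 2.65% higher and 4.4% lower. The log2 fold change of Nefh was then 0.50 (SE 0.07, adjusted p = 3.62e-04) and that of Nefm 0.47 (SE 0.07, adjusted p = 7.49e-04), each larger than before the removal. For Nefm the trends were taken at the file's length of 5782 bases and the GC share of its longest transcript. They were not refitted with the 3334 bases of Nefm-201. Nefl stayed at 0.15 (SE 0.06, adjusted p = 0.169). With all 6 libraries and trends removed, 0 of 16032 genes passed, with Nefm at 0.60 (SE 0.17, unadjusted p = 0.0108, adjusted p = 0.558) and Nefh at 0.44 (SE 0.12, unadjusted p = 0.012, adjusted p = 0.558).

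Peripherin was lower in the Ash1l+/- libraries by CPM, without passing the test. Prph (ENSMUSG00000023484, chromosome 15, 99055174 to 99058978, plus strand) was at 2131, 4584 and 2008 CPM in WT replicates 1, 2 and 3 and at 1874, 1966 and 1977 CPM in Ash1l+/- replicates 1, 2 and 3. All Ash1l+/- libraries were below all WT libraries, by a narrow gap from WT replicates 1 and 3 and a wide one from WT replicate 2, which was at 2.21 times the mean of the other WT libraries. Its log2 fold change came to -0.59 (SE 0.35, adjusted p = 0.401) with 6 libraries and -0.09 (SE 0.07, adjusted p = 0.363) without WT replicate 2. The direction turned with trends removed, to 0.13 (SE 0.16, adjusted p = 0.676) with 6 libraries and 0.27 (SE 0.07, adjusted p = 0.0259) without WT replicate 2. The sign of the Prph difference thus depended on the removal of these trends.

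Internexin showed no difference past the spread between libraries. Ina (ENSMUSG00000034336, chromosome 19, 47014698 to 47025327, plus strand) was at 57.1, 55.3 and 64.3 CPM in WT and at 58.7, 57.9 and 64.8 CPM in Ash1l+/-. The groups overlapped almost fully and WT replicate 2, although the lowest, lay with the others. Its log2 fold change came to 0.04 (SE 0.14, adjusted p = 0.87) with 6 libraries and -0.00 (SE 0.09, adjusted p = 0.986) without WT replicate 2. With trends removed it was 0.33 (SE 0.18, adjusted p = 0.558) and 0.19 (SE 0.09, adjusted p = 0.203), which did not pass either.

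Ratios between members within 1 library do not depend on library size, and they compare the neurofilament messages with each other. Nefh to Nefm, as a log2 ratio of reads per kilobase, was 0.02, 0.91 and 0.01 in WT (replicates 1, 2 and 3), while Ash1l+/- had 0.01, 0.01 and -0.02. The ratio varied little among 5 libraries of both genotypes, and WT replicate 2 alone was far from them. Its level near 0 rests on the file's Nefm length: it was -0.81 to -0.77 in the 5 libraries with the exons of Nefm-201 only, and -0.32 to -0.28 with only the shared bases left out. Nefl to Nefm was 0.43, 0.75 and 0.60 in WT and 0.39, 0.46 and 0.45 in Ash1l+/-, with overlapping groups. With the file's lengths this is 1.31 to 1.68 Nefl reads for each Nefm read per kilobase. It is 1.13 to 1.44 with Nefm counted by the 3334 bases of Nefm-201 and Nefl by the 2272 bases outside the overlap, and 1.58 to 2.03 with only the shared bases left out of both lengths. The levels of the ratios to Nefm are therefore uncertain in either direction, whereas their differences between libraries do not depend on the lengths used as divisors.

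Prph to Nefm, the balance of the small-neuron filament against the large-neuron one, was 0.72, 2.31 and 0.71 in WT and 0.30, 0.52 and 0.33 in Ash1l+/- on the log2 scale. Every Ash1l+/- library was below every WT library, also without WT replicate 2, by 0.86 on average with 6 libraries and 0.33 with 5. Ina to Nefm was -5.20, -4.76 and -4.95 in WT and -5.39, -5.26 and -5.30 in Ash1l+/-, again with no overlap. Among single genes, 19.2% were lower in Ash1l+/- without overlap with 6 libraries, and 25.3% without WT replicate 2. No such share was computed for ratios. The ratios were taken without removing GC and length trends, on which the sign of the Prph difference depended. Nes to Vim and Gfap to Vim overlapped between groups. Across the 6 ratios, two-sided exact permutation tests gave p = 0.1 for Nefh to Nefm, Prph to Nefm and Ina to Nefm, and 0.3 to 0.7 for the other 3, with Benjamini-Hochberg values of 0.2 to 0.7. The smallest p that 3 libraries against 3 can give is 0.1, so no ratio could pass. The difference in Nefh to Nefm was -0.32 with WT replicate 2 and -0.02 without it.

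**Figure D3:**
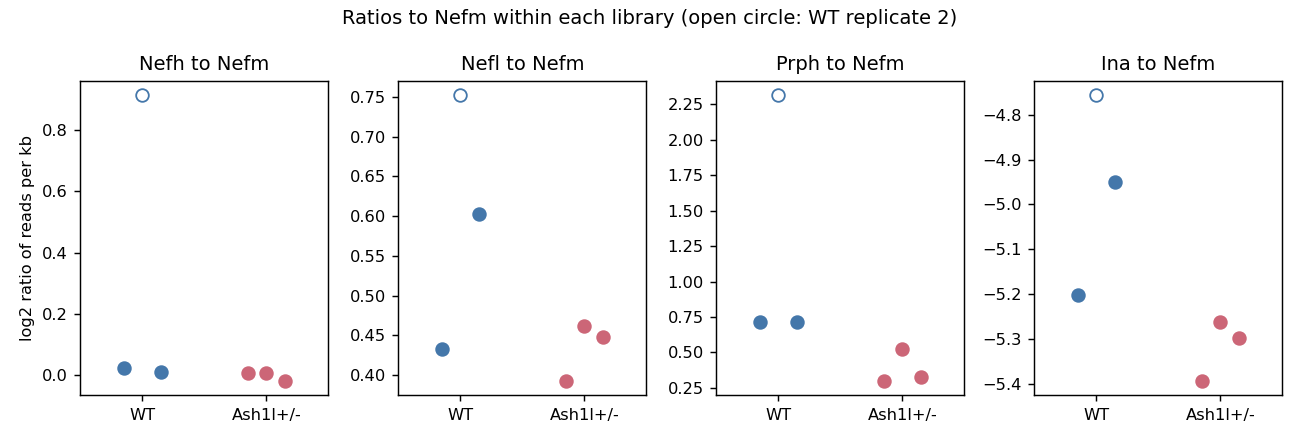
log2 ratios of reads per kilobase of Nefh, Nefl, Prph and Ina to Nefm within each library, with the file's gene lengths (axes differ and do not start at 0), with WT replicate 2 as an open circle. Nefh to Nefm lies between -0.02 and 0.02 in 5 libraries and at 0.91 in WT replicate 2, and Prph to Nefm is lower in every Ash1l+/- library than in every WT library.

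As shares of the 8 genes' reads per kilobase, Prph made up 31.7% and 30.7% in WT replicates 1 and 3, 50.01% in WT replicate 2 and 26.1% to 28.7% in Ash1l+/-. Nefm made up 18.7% to 19.3% in WT replicates 1 and 3, 10.1% in WT replicate 2 and 20.03% to 21.2% in Ash1l+/-. Nefh was at 18.9% to 19.6% in WT, with WT replicate 2 inside that range, and at 20.2% to 21.4% in Ash1l+/-. With the Nefm-201 exons and the shorter Nefl length, Nefh was at 14.8% and 15.45% in WT replicates 3 and 1, 16.4% in WT replicate 2 and 15.7% to 16.5% in Ash1l+/-, so that the groups overlapped. Vim never exceeded 3.44%, and Ina, Nes and Gfap were each under 1% in every library.

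**Figure D4:**
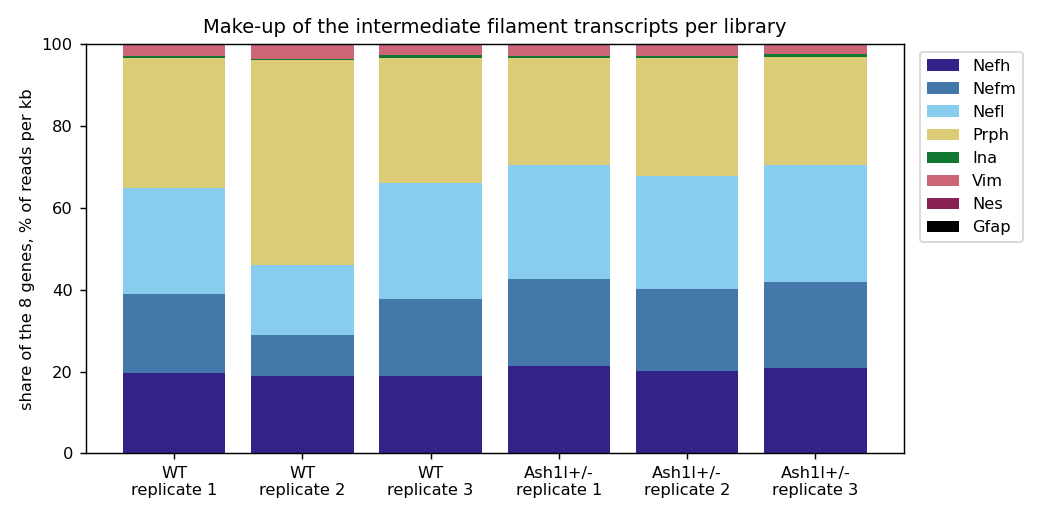
Share of each gene in the reads per kilobase of the 8 genes, one bar per library, computed with the file's gene lengths. Prph takes 50.01% in WT replicate 2 and 26.1% to 31.7% in the other libraries.

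Of the filaments of other cells, Vim (ENSMUSG00000026728, chromosome 2, 13573927 to 13582826, plus strand) was at 439, 749 and 402 CPM in WT and at 466, 456 and 426 CPM in Ash1l+/-. WT replicate 2 was the highest, and the other 5 libraries overlapped. Its log2 fold change came to -0.24 (SE 0.27, adjusted p = 0.601) with 6 libraries and 0.10 (SE 0.07, adjusted p = 0.385) without WT replicate 2. Nes (ENSMUSG00000004891, chromosome 3, 87971078 to 87980451, plus strand) was at 33.3, 56.5 and 21.8 CPM in WT and at 39.1, 32.9 and 37.9 CPM in Ash1l+/-. The groups overlapped in both comparisons, since Ash1l+/- replicate 2 lay just below WT replicate 1.

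The log2 fold change of Nes was -0.02 (SE 0.35, adjusted p = 0.973) with 6 libraries and 0.41 (SE 0.14, adjusted p = 0.037) without WT replicate 2. With trends also removed it was 0.56 (SE 0.12, adjusted p = 0.0084). The size of the rise rested on WT replicate 3, the lowest library: leaving it out of the 5 gave 0.13 (adjusted p = 0.547), and leaving out WT replicate 1 gave 0.75 (adjusted p = 0.00323). The log2 fold change of Nes stayed at 0.36 (adjusted p = 0.0569) without Ash1l+/- replicate 1 and 0.39 (adjusted p = 0.0799) without Ash1l+/- replicate 3, and was 0.365 (adjusted p = 0.149) in limma on log2(FPKM + 1).

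Gfap (ENSMUSG00000020932, chromosome 11, 102887336 to 102900912, minus strand) was barely detected, with 39, 26 and 45 reads in WT replicates 1, 2 and 3 and 16, 50 and 30 in Ash1l+/- replicates 1, 2 and 3. The lowest, 16 reads, has an exact 95% Poisson interval of 9.15 to 26.0, and the highest, 50 reads, one of 37.1 to 65.9, for counting error only. Both extremes were Ash1l+/- libraries whose intervals do not overlap, and the groups overlapped. Its log2 fold change came to -0.29 (SE 0.48, adjusted p = 0.716) with 6 libraries and -0.35 (SE 0.39, adjusted p = 0.572) without WT replicate 2.

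Marker genes of the cells that make these filaments were read in the same libraries. In bulk tissue, fewer cells of a type and less RNA per cell cannot be told apart. The summed CPM of 8 markers of large myelinated neurons was 1153 to 1232 in WT replicates 1 and 3, 2132 in WT replicate 2 and 1333 to 1405 in Ash1l+/-. Without WT replicate 2, 3 of the 8 rose and 0 fell: Ntrk3, the neurotrophin-3 receptor, by 0.46, Spp1, osteopontin, by 0.30 and Cntnap2, an axonal adhesion protein, by 0.26 on the log2 scale. Pvalb, the parvalbumin of proprioceptors, was at 124, 1312 and 132 CPM in WT and 133, 123 and 127 in Ash1l+/-, so WT replicate 2 alone was high. With trends removed, 0 of these 8 markers rose and 1 fell. The 9 markers of small neurons summed to 3502 to 3642 CPM in WT replicates 1 and 3, 4158 in WT replicate 2 and 3523 to 3828 in Ash1l+/-, with 2 higher and 1 lower without WT replicate 2. With trends removed, 3 of the 9 were higher and 0 lower: the ATP receptor gene P2rx3 at 0.295, Mrgprd at 0.28 and Trpv1, the capsaicin receptor, at 0.26. The 10 markers of all neurons summed to 7538 to 7722, 19170 and 7185 to 7470 CPM in the same order, with 0 higher and 2 lower. Uchl1 alone gave 14230 CPM of that sum in WT replicate 2, where the median of the 10 markers was -0.30 on the log2 scale against the other WT libraries. None of these neuronal markers of the labelled tissue was at 0. The part of neuron makeup in the neurofilament differences was not tested.

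Beside Vim, Nes and Gfap, 7 satellite glia markers gave 4 higher and 1 lower without WT replicate 2, with Cdh19 at 0.47, the potassium channel gene Kcnj10 at 0.42, Fabp7 at 0.36 and Sox10 at -0.33 on the log2 scale. With trends removed only Kcnj10 passed. The list summed to 3815 to 3908 CPM in WT replicates 1 and 3, 10840 in WT replicate 2 and 3309 to 4063 in Ash1l+/-. Apoe gave 9753 of the 10840 CPM, and the median marker was at -0.32 in WT replicate 2 against the other WT libraries. Endothelial markers summed to 106 to 122, 252 and 110 to 131 CPM in that order, with 1 of 6 higher, the VEGF receptor Flt1 at 0.40, and Cldn5 gave 197 of the 252 CPM. Mural cell markers summed to 258 to 290, 146 and 290 to 345 CPM, and dividing cell markers to 6.32 to 7.10, 14.9, of which Birc5 gave 11.1, and 6.59 to 9.17. The 9 markers of central nervous system glia, 6 of them tested, summed to 35.0 to 38.4, 31.1 and 33.2 to 36.7 CPM, and Opalin, Olig2 and Mog were at or near 0 in every library. The water channel gene Aqp4 was at 6.97, 2.17 and 8.81 CPM in WT and 11.6, 15.3 and 12.1 in Ash1l+/-. It rose and the oligodendrocyte gene Mobp fell, by log2 fold changes of 0.72 and -1.28 without WT replicate 2. Myelinating Schwann cell markers gave 1 higher and 3 lower of 9, non-myelinating ones 1 and 1 of 5, fibroblast ones 0 and 3 of 7, mural ones 1 and 0 of 6, erythrocyte ones 0 and 2 of 5, and macrophage ones 0 of 7. The part of these cells in the Nes difference was not tested.

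Of 16 other intermediate filament genes listed, 12 were tested, 0 passed with 6 libraries, and without WT replicate 2 only Iffo1, a filament-related protein, passed, at -0.30 (SE 0.08, adjusted p = 0.0152). The median log2 fold change of the 12 was -0.03 without WT replicate 2. With trends also removed Iffo1 did not pass, at -0.148 (adjusted p = 0.185). Synm, synemin, which co-assembles with vimentin and desmin, was at 497, 360 and 487 CPM in WT and 553, 532 and 548 in Ash1l+/- (adjusted p = 0.145 without WT replicate 2). Des, the muscle filament desmin, was at 2.22, 11.7 and 2.64 CPM in WT and 2.38, 2.31 and 2.56 in Ash1l+/-, and the skeletal actin gene Acta1 was likewise high in WT replicate 2 alone, at 12.5 CPM against 0.429 to 1.19. Keratin genes were at 10.1 CPM or below, and Krt18 was at 0 in every library.

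Genes that link, turn over and move filaments changed in both directions without WT replicate 2. Of 12 linker and turnover genes, 4 rose and 2 fell. Dst (dystonin, the cytolinker whose loss causes a sensory neuropathy) was at 0.54, Macf1, a related linker of actin and microtubules, at 0.49 and Stub1, a co-chaperone ubiquitin ligase, at -0.59 on the log2 scale. With trends removed only Dst still passed. Of 9 transport genes, 3 rose and 1 fell, led by Myo5a, a myosin motor that binds neurofilaments, at 0.36, the kinesin genes Kif5b at 0.35 and Kif5c at 0.23, and the kinesin light chain gene Klc2 at -0.30. None of the 9 passed with trends removed. In WT replicate 2 Dst was at 240 CPM against 1154 to 1825 elsewhere.

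Of 15 kinase and phosphatase genes that act on neurofilament tails, 3 rose and 4 fell. Among them were Gsk3a at -0.47, Rock1 at 0.43 and Mapk8 (JNK1) at 0.35 on the log2 scale, none of which passed with trends removed. Cdk5, the best known neurofilament kinase, was at -0.10 (adjusted p = 0.342). Of 5 genes for proteins that bind neurofilament messages, only Elavl4 rose, by 0.33, and Tardbp, the TDP-43 gene, was at 0.14 (adjusted p = 0.213). Elavl4 did not pass with trends removed, at 0.074 (adjusted p = 0.553).

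Among 11 genes of the axon's tubulins, microtubule proteins and spectrins, 3 rose and 4 fell. Map2 was at 0.51, Map1b at 0.41 and Sptbn1 at 0.34, while the tubulin gene Tuba1a was at -0.45. Map1b, a microtubule-associated protein of axons, was at 3842, 2137 and 4161 CPM in WT and 5220, 5160 and 5495 in Ash1l+/-. None of the genes of these lists passed with all 6 libraries. These counts stand beside 9.39% of all tested genes higher and 10.4% lower. Map2, Tubb3 (higher) and Tuba1a (lower) passed with trends removed.

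The protein-coding genes whose log2 CPM most resembled the mean of Nefh, Nefm and Nefl over the 6 libraries, out of 9627 with a mean of at least 10 CPM, were Ptgfr and Sparcl1 with a Pearson r of 0.983 each, Prdm10 with 0.981, Gja1 with 0.978 and Mrs2 with 0.975. Over the 5 libraries without WT replicate 2 the same genes had r of 0.990, 0.987, 0.982, 0.972 and 0.965. These points share library depth and base composition, and genes so ranked out of so many over so few libraries are a description of likeness only. In WT replicate 2 the triplet also diverged, with Nefh at 0.445, Nefm at -0.45 and Nefl at -0.216 on the log2 scale against the other WT libraries. The mean of the triplet therefore follows none of Nefh, Nefm and Nefl in that library.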

How the data were processed

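RNA of dorsal root ganglia, extracted with Trizol and made into libraries with a NEBNext Ultra RNA kit per the labels' protocols, was counted per gene. The authors deposited raw counts and FPKM for 54532 genes. HISAT2 2.0.5, featureCounts 1.5.0-p3 and GRCm38 (mm10) are named in the submitters' processing notes, and the treatment of reads in overlapping exons is not stated there. Counts of every library pair differed beyond sampling noise (chi-square per degree of freedom at least 3.91), and all were kept as separate samples.

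From the counts, genes kept by filterByExpr were tested by genotype with edgeR 4.0.16 (quasi-likelihood, TMM) in R 4.3.3, with Benjamini-Hochberg adjustment at 0.05 over all genes. An SE is the absolute log2 fold change over the root of the F statistic. Ratios used counts per kilobase of the file's gene length. GC and length trends were loess curves (span 0.3, values clipped at the 1 and 99 percentiles) fitted in each library to deviations in log2 CPM against gene length and against GC of the longest GENCODE M21 transcript, found for 99.9% of tested genes, entered as offsets. Alternatives were RLE factors, library totals, no filter, DESeq2 1.42.0, limma 3.58.1 (voom, and log2(FPKM + 1)), the replicate number as a block, and leaving out libraries. The fits were also run on simulated data with changes larger than those of the members. That run does not show how well differences as small as these are found.

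Members and lists were chosen with earlier results of these data known. Genes named from a list were those past the threshold, at most 4 by size, or in their absence the most counted, and some genes that the rule names are not reported here. Synm, Des, Krt18, Acta1, Pvalb, Cdk5, Tardbp, Tubb3, Opalin, Olig2 and Mog were named after their values were seen, as were P2rx3, Mrgprd, Trpv1, Uchl1, Apoe, Cldn5 and Birc5, and the other Nefm and Nefl lengths were chosen after the data were seen. Promoter sequences are from RefSeq (GRCm38.p6) and coding sequences from GENCODE M21. Drgx was matched as Prrxl1.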

Additional observations from a re-analysis of the deposited data

How the results depend on the processing

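Nefm and Nefl kept a positive and Nefh a mostly positive log2 fold change, and the calls depended on WT replicate 2. Genes called by genotype numbered 0 with 6 libraries and 35 in DESeq2, and 0 when any library other than WT replicate 2 was left out of the 6. Without WT replicate 2 they numbered 1155 with trends removed, 3982 with a replicate block and 3266 with RLE factors. In DESeq2 and in limma on FPKM they then numbered 2904 and 1528. With an Ash1l+/- library also left out of the 5, they numbered 1855 to 4198. Members called without WT replicate 2 numbered 4 with trends removed, 4 with the replicate block, 3 with RLE factors, 3 in DESeq2 and 0 in limma on FPKM, and 0 to 3 when libraries were left out. The member added by the replicate block was Nefl, at 0.20 (adjusted p = 0.00108). The causes were not tested.

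Prph turned from negative to 0.13 and 0.27 with trends removed, with 6 and 5 libraries. Vim turned positive without WT replicate 2: 0.011 with trends removed, 0.088 with the replicate block, 0.10 with RLE factors, 0.10 in DESeq2 and 0.10 on FPKM. Nes turned positive at 0.20 with library totals, 0.033 with no count filter, 0.10 in voom, 0.065 on FPKM, 0.086 with the replicate block and 0.084 with trends removed; without WT replicate 2 it was 0.56 with trends removed, 0.50 with the replicate block, 0.42 with RLE factors, 0.42 in DESeq2 and 0.365 on FPKM. When libraries were left out, log2 fold changes ranged from -0.029 to 0.28 for Nefh, -0.09 to 0.11 for Ina, -0.39 to 0.16 for Vim, -0.28 to 0.75 for Nes and -0.85 to 0.079 for Gfap, and the Gfap to Vim log2 ratio from -0.70 to 0.25. Deviations of same-numbered libraries from their group means correlated at 0.001, -0.032 and 0.038. The WT group mean includes the distant WT replicate 2, which shapes the deviations of all WT libraries. This check therefore could not show whether the numbers pair libraries. The replicate block with 6 libraries called 0 genes. Gfap had 16 to 50 reads per library, and its counts within Ash1l+/- varied beyond their counting intervals.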
